A study of Mus musculus with 12 samples.

Results

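The 8 troponin genes of the mouse were followed in RNA of the left ventricle. They were taken by symbol (Tnnt1, Tnnt2, Tnnt3, Tnni1, Tnni2, Tnni3, Tnnc1 and Tnnc2) from the 38293 genes of the deposited tables, and all 8 were found. The 3 groups of 4 libraries came from healthy C57BL/6J mice whose chest had been opened and whose heart muscle had been injected 2 times with 10 µl, 3 days before collection. The first group received Upy-PEG with antimiR-195, the second Upy-PEG alone with no drug, and the third phosphate-buffered saline (PBS) with no drug. Upy-PEG, in which poly(ethylene glycol) chains are held together by hydrogen-bonding ureidopyrimidinone units, forms the gel, and antimiR-195 is meant to block the microRNA miR-195. All hearts, those given PBS included, had therefore undergone surgery and needle injury, and no uninjected heart was analysed here. Whether the libraries are of different animals is not in the labels, so every p given here reflects the spread between these libraries, which may be partly technical.

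Troponin is the calcium switch of striated muscle. On the thin filament, troponin C binds calcium, troponin I holds actin and myosin apart until calcium arrives, and troponin T ties the complex to tropomyosin. Each subunit has several genes. The adult ventricle uses Tnnt2 for troponin T, Tnni3 for troponin I and Tnnc1 for troponin C, and slow skeletal muscle shares Tnnc1. Slow skeletal muscle uses Tnnt1 and Tnni1, the second of which is also the troponin I of the fetal heart. Fast skeletal muscle uses Tnnt3, Tnni2 and Tnnc2.

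In these hearts no troponin gene passed the threshold of an adjusted p under 0.05 in any of the 3 comparisons. The cardiac troponin T, I and C genes varied together from library to library, and their groups overlapped in every comparison. The fast skeletal gene Tnnt3, present at very low level, did not pass either, but all 8 libraries from hydrogel hearts lay above all 4 PBS libraries. Of all genes tested, 5.9% were higher without overlap in Upy-PEG over PBS and 2.74% in antimiR-195 over PBS. The call of Tnnt3 between Upy-PEG and PBS depended on the test and on which libraries entered the fit.

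In the GRCm38 genome build, 6 of the genes form 3 pairs of a troponin I gene and a troponin T gene. Tnni1 (chr1:135779434-135810989) precedes Tnnt2 (chr1:135836354-135852260) on the plus strand of chromosome 1. Tnnt1 (chr7:4504570-4516382) and Tnni3 (chr7:4518305-4524229) lie side by side on the minus strand of chromosome 7. Tnni2 (chr7:142441808-142444410) and Tnnt3 (chr7:142498836-142516009) lie on the plus strand near the other end of the same chromosome, with the leukocyte gene Lsp1 between them. The troponin C genes stand alone, Tnnc1 at chr14:31208312-31211729 on the plus strand and Tnnc2 at chr2:164777161-164779967 on the minus strand.

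The promoters of the 3 cardiac genes and of Tnnt1 are shown because their transcripts moved together across the libraries. The sequences are those of RefSeq on GRCm38.p6, 300 bases each around the annotated start site, written in the direction of the gene. For Tnnt2, the first of the 2 promoters listed is given. Capitals mark matches to 3 motifs, each searched on both strands. The M-CAT element, bound by TEAD factors, was searched as CATTCC. The element bound by GATA factors was searched as AGATAA, and the box bound by the TATA-binding protein was searched as TATAAA.
Tnnt2 promoter, chr1:135836084-135836383, plus strand: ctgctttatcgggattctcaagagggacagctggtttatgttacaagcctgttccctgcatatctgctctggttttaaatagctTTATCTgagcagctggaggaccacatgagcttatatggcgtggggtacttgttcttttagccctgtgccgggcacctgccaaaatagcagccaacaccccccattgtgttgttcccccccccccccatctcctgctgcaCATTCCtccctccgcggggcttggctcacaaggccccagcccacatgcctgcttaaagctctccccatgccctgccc
Tnni3 promoter, chr7:4522479-4522778, minus strand: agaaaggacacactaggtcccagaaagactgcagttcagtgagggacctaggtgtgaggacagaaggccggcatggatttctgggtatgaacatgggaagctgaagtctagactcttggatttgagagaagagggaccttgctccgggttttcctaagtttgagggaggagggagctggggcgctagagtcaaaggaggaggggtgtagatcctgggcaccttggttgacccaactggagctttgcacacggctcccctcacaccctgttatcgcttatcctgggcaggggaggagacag
Tnnc1 promoter, chr14:31208062-31208361, plus strand: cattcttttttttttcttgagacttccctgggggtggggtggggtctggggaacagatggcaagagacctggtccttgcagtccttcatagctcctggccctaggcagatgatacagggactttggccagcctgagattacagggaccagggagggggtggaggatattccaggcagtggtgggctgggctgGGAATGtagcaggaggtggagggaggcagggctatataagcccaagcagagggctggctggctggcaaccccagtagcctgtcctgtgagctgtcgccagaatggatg
Tnnt1 promoter, chr7:4515926-4516225, minus strand: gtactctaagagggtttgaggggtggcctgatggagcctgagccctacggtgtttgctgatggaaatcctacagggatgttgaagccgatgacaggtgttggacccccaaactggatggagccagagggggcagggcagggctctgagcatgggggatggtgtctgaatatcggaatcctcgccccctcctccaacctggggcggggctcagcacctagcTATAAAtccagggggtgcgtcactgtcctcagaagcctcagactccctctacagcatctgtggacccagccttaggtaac

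CATTCC stood 27 bases before the start site in Tnnt2 and, on the other strand, 58 bases before it in Tnnc1. AGATAA stood 166 bases before the start site of Tnnt2 on the other strand, and TATAAA 30 bases before that of Tnnt1. Only the exact letters given were searched. Near matches, such as tatataa in the Tnnc1 window, are therefore not marked, and a promoter without capitals may still hold a variant of a motif. Of the 32851 mouse promoters listed, 14.7% held CATTCC, 11.2% AGATAA and 13.6% TATAAA. Tnni3 held none of the 3 motifs in the window. Neither did the windows of Tnni1 (the first of 2 promoters listed) and Tnnc2, which were searched in the same way. The E-box CANNTG was found in all 6 windows, from 1 match in Tnni3 to 5 in Tnnt2, and in 72.3% of all promoters. A CArG box and a MEF2 site, which 1.63% and 3.19% of promoters held, were found in none of the 6. RefSeq promoters of Tnnt3 and Tnni2 were not used here.

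The microRNA that antimiR-195 is directed against is shown with its seed, bases 2 to 8, in capitals. A messenger RNA that pairs with the whole seed would carry the complement TGCTGCT, and a shorter match can pair with part of it.
mmu-miR-195a-5p, chr11:70235062-70235082, plus strand: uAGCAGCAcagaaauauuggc

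None of the 8 troponin genes carried TGCTGCT in its longest annotated 3′ untranslated region (GENCODE release 21). The shorter GCTGCT, which leaves out the last base of the seed, had 1 match in Tnnc2 and none in the other troponin genes. These regions are short, from 63 bases in Tnni3 to 379 bases in Tnni1. Among all 4939 genes with a region in that range of lengths, 4.43% carried the 7-mer.

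Counts on genes per library ranged from 22353241 to 25589250 in the Upy-PEG antimiR-195 group, from 25018689 to 28249454 in the Upy-PEG group and from 24105867 to 30278621 in the PBS group. AntimiR-195 replicates 2 and 3 stood apart from the other 10 libraries. On the first principal component, which held 35.1% of the variance, they lay at -60.2 and -40.7, against -8.48 to 33.4 for the others. Their levels also fell more steeply with gene length: the slope of a library's log2 level, relative to the mean of all libraries, was -0.229 and -0.135 per doubling of gene length, against -0.0415 to 0.122 in the others. Troponin genes are short, 1041 to 2204 bases in the deposited table for the 7 tested against a median of 3514 bases for all genes tested, so the log2 fold changes of the troponin genes tested, and counts of gene lists, are given with and without these libraries where antimiR-195 hearts are compared. All 20 cardiomyocyte markers passed the filter on low counts, and their summed level was 91900 to 103000 CPM (counts scaled to library size) in antimiR-195 libraries, 68400 to 92400 in Upy-PEG libraries and 94500 to 110000 in PBS libraries.

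The levels of the 8 genes spanned more than 4 orders of magnitude. In RPKM, the authors' deposited unit, which divides reads by gene length and library size, Tnnt2, the troponin T of heart muscle, averaged 8080 ± 2130 in antimiR-195 hearts, 6610 ± 1040 in Upy-PEG hearts and 7170 ± 1410 in PBS hearts (SD, n = 4 each, as for the means that follow). Tnni3, the cardiac troponin I, averaged 2970 ± 844 RPKM in antimiR-195 hearts, 2130 ± 398 in Upy-PEG hearts and 2450 ± 508 in PBS hearts. Tnnc1, the troponin C of heart and slow muscle, averaged 3520 ± 1330 RPKM in antimiR-195 hearts, 2380 ± 326 in Upy-PEG hearts and 2400 ± 410 in PBS hearts. These 3 genes ranked 9, 16 and 15 among all 38293 genes by mean RPKM, and together they took 1.93% ± 0.557 of all gene counts in antimiR-195 hearts, 1.47% ± 0.232 in Upy-PEG hearts and 1.6% ± 0.308 in PBS hearts.

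The skeletal genes were far lower. Tnnt1, the slow skeletal troponin T, averaged 7.19 ± 2.23 RPKM in antimiR-195 hearts, 5.2 ± 0.607 in Upy-PEG hearts and 6.45 ± 2.04 in PBS hearts. Tnni2, the fast troponin I, averaged 2.07 ± 0.929 RPKM in antimiR-195 hearts, 1.95 ± 0.166 in Upy-PEG hearts and 1.38 ± 0.305 in PBS hearts. Tnnt3, the fast troponin T, averaged 1.22 ± 0.486 RPKM in antimiR-195 hearts, 1.73 ± 1.06 in Upy-PEG hearts and 0.42 ± 0.0905 in PBS hearts. The 2 remaining genes stayed below 1 RPKM in every library: Tnni1, the slow and fetal troponin I, ranged from 0.0253 to 0.534 RPKM, and Tnnc2, the fast troponin C, from 0.05 to 0.828 RPKM.

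**Figure D1:**
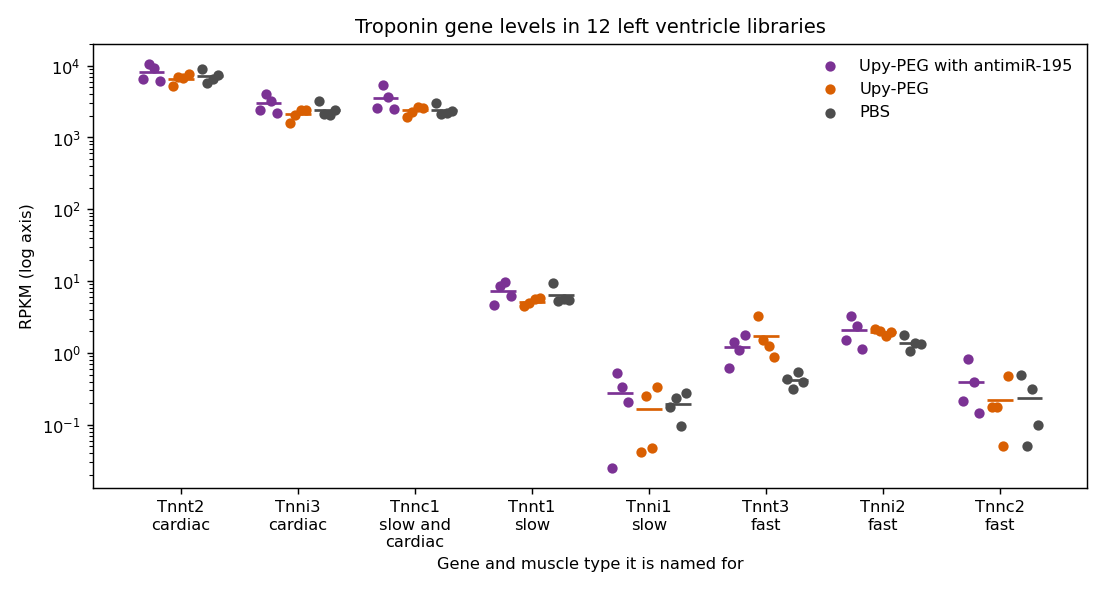
Level of each troponin gene in RPKM on a log axis, with 1 point per library, antimiR-195 (purple), Upy-PEG (orange) and PBS (grey) from left to right, and a bar at the mean of each group of 4. The cardiac genes Tnnt2, Tnni3 and Tnnc1 lie between 1580 and 10500 RPKM and the 5 skeletal genes between 0.0253 and 9.58 RPKM. For Tnnt3 all points of both hydrogel groups lie above the PBS points.

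The order of the levels was Tnnt2, then Tnnc1 and Tnni3, then Tnnt1, Tnni2, Tnnt3, Tnnc2 and Tnni1 in both hydrogel groups. Tnni3 and Tnnc1 overlapped in every group, and Tnni3 came before Tnnc1 in PBS hearts. Tnni2 and Tnnt3 overlapped in both hydrogel groups but not in PBS hearts, where Tnni2 was the higher in all 4 libraries. Tnnc2 and Tnni1 overlapped in every group, with 1 to 22 reads per library between them. In RPKM, the first place of Tnnt2 rested on the length of 1227 bases behind its deposited values. In reads, where no length enters, Tnnt2 was first too. It had 2745466 reads over the 12 libraries, against 1486879 for Tnni3 and 879677 for Tnnc1. The exons of all Tnnt2 transcripts in GENCODE release 21, merged, cover 7752 bases, which is not the length of 1 messenger RNA. With that length the median of Tnnt2 falls to 1080 RPKM, under those of Tnni3 (2250) and Tnnc1 (2540).

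Within each subunit the cardiac gene supplied nearly all of the signal. Tnnt2 made up 99.9% of the summed troponin T RPKM in each group, and Tnni3 made up 99.9% of that of troponin I. Tnnt1 made up 0.0889% ± 0.0162 of troponin T in antimiR-195 hearts, 0.0792% ± 0.00688 in Upy-PEG hearts and 0.089% ± 0.0136 in PBS hearts. Tnnt3 made up 0.016% ± 0.00897 of troponin T in antimiR-195 hearts, 0.0288% ± 0.0233 in Upy-PEG hearts and 0.00598% ± 0.00161 in PBS hearts. Its lowest share in a hydrogel library, 0.00943%, was above the highest PBS share of 0.00835%. The troponin T shares also rest on the deposited length of Tnnt2, and with the longer length those of Tnnt1 and Tnnt3 would be larger. Tnni2 made up 0.0671% ± 0.012 of troponin I in antimiR-195 hearts, 0.0955% ± 0.0277 in Upy-PEG hearts and 0.0563% ± 0.00657 in PBS hearts. The shares of Tnni2 in Upy-PEG hearts, 0.0709% to 0.134%, did not overlap the PBS range of 0.0491% to 0.065%. The level of Tnni2 itself did overlap, at 1.74 to 2.13 RPKM in Upy-PEG hearts and 1.05 to 1.79 in PBS hearts. Tnni3, nearly all of the sum behind the share, was lowest in Upy-PEG replicate 1, the library with the 0.134% share. The difference in share was not tested. The shares of Tnni1 and Tnnc2 were each near 0.01% or below in every group mean and overlapped throughout. Since these are bulk samples, fewer muscle cells and less RNA per muscle cell cannot be told apart in any of these values.

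Upy-PEG alone was compared with PBS to ask what the hydrogel vehicle changes. Tnnt3 was the troponin gene with the largest difference. It had 128, 60, 44 and 32 reads in Upy-PEG libraries, against 18, 11, 18 and 14 reads in PBS libraries. After TMM normalisation (edgeR's scaling of library sizes) that was 3.97, 1.98, 1.74 and 1.18 CPM in Upy-PEG hearts, against 0.586, 0.466, 0.749 and 0.557 CPM in PBS hearts. All 4 Upy-PEG libraries lay above all 4 PBS libraries, and Upy-PEG replicate 1 was the highest of all. The log2 fold change was 1.91 ± 0.391 (SE; 95% interval 1.03 to 2.80), a 3.77-fold higher level, and edgeR's quasi-likelihood test gave an adjusted p of 0.0971 over the 14770 genes tested. By p, Tnnt3 ranked 33 of these genes, and by log2 fold change 16. An exact 2-sided permutation test on its log2 CPM gave p = 0.0286, the smallest that 4 against 4 libraries allow. Any 4 against 4 libraries without overlap give this p.

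No gene at all passed the adjusted threshold in that fit (0 of 14770, 0%; lowest adjusted p 0.0809), so 0 of the 7 troponin genes tested were called. At an unadjusted p under 0.05, 1 of 7 was higher, Tnnt3, beside 9.33% of all genes tested, and 0 were lower, beside 3.83%. The groups did not overlap for the same 1 gene, beside 5.9% of all genes tested that were higher without overlap. With DESeq2, Tnnt3 passed with an adjusted p of 0.00145, beside 3.42% of all genes, and with limma voom with sample weights it passed with an adjusted p of 0.0204, beside 6.22%. It also passed when the fit held only the 8 libraries compared (adjusted p 0.0467, beside 1.18%) and when antimiR-195 replicates 2 and 3 were left out (0.0402, beside 2.31%) or replicate 2 alone (0.0474, beside 1.01%), and without a filter on low counts (0.0433, beside 0.288%). It did not pass in limma-trend fits of log2(RPKM + 0.1), with an adjusted p of 0.0833 with the filter and 0.202 without it, where 0.00417% of all genes passed. Without Upy-PEG replicate 1, its log2 fold change was 1.47 ± 0.332 with an adjusted p of 0.289 (edgeR).

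The other fast gene, Tnni2, had 2.79, 2.81, 2.58 and 2.84 CPM in Upy-PEG hearts, against 2.64, 1.65, 2.04 and 1.99 CPM in PBS hearts. The Upy-PEG libraries were nearly equal, and 3 of the 4 lay above every PBS library, of which replicate 1 reached into their range. The log2 fold change of Tnni2 was 0.40 ± 0.28 (adjusted p = 0.611, edgeR). Tnnc2 failed the filter on low counts, with 4, 4, 1 and 10 reads in Upy-PEG libraries and 12, 1, 6 and 2 reads in PBS libraries, and a difference could not be seen at this depth (exact permutation p = 0.914).

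The cardiac genes were not distinguishable between Upy-PEG and PBS. Tnnt2 had 5550, 7840, 8240 and 9190 CPM in Upy-PEG hearts, against 10900, 7480, 7910 and 9210 CPM in PBS hearts. The lowest value was Upy-PEG replicate 1 and the highest PBS replicate 1, and the rest overlapped. The log2 fold change of Tnnt2 was -0.20 ± 0.214 (adjusted p = 0.761, edgeR). Tnni3 had 2670, 3760, 4680 and 4530 CPM in Upy-PEG hearts, against 6050, 4330, 4040 and 4670 CPM in PBS hearts, a log2 fold change of -0.29 ± 0.226 (adjusted p = 0.665, edgeR). Tnnc1 had 1790, 2230, 2770 and 2640 CPM in Upy-PEG hearts, against 3090, 2330, 2270 and 2420 CPM in PBS hearts, a log2 fold change of -0.10 ± 0.232 (adjusted p = 0.904, edgeR). In all 3 genes the same libraries, Upy-PEG replicate 1 and PBS replicate 1, marked the low and high ends.

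The slow genes overlapped as well. Tnnt1 had 8.63, 10.1, 12.4 and 12.4 CPM in Upy-PEG hearts, against 20.6, 12.3, 12.4 and 11.9 CPM in PBS hearts. PBS replicate 1 stood above the other 7 libraries, which overlapped, and the log2 fold change was -0.40 ± 0.238 (adjusted p = 0.524, edgeR). Without PBS replicate 1 it was -0.17 ± 0.223 (adjusted p = 0.814). Tnni1, with 2, 12, 2 and 15 reads in Upy-PEG libraries and 9, 10, 4 and 12 reads in PBS libraries, had a log2 fold change of -0.32 with a 95% interval of -1.95 to 1.32. Over the 7 genes tested the median log2 fold change was -0.20, beside -0.028 for all genes tested.

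Allowing for each library's gene length slope narrowed the errors of the cardiac genes. With that slope as a covariate in the edgeR fit, the log2 fold changes between Upy-PEG and PBS were -0.29 ± 0.0953 for Tnnt2, -0.38 ± 0.0986 for Tnni3, -0.20 ± 0.0892 for Tnnc1 and -0.47 ± 0.148 for Tnnt1. Their adjusted p-values were 0.0981, 0.0553, 0.203 and 0.09, so none passed. At an unadjusted p under 0.05 these 4 genes were lower, beside 11% of all genes tested, and 1, Tnnt3, was higher, beside 12.4%. In this fit Tnnt3 passed (1.92 ± 0.382, adjusted p = 0.0409), beside 2.25% of all genes tested. The summed cardiomyocyte markers were lowest in Upy-PEG replicate 1, at 68400 CPM. In the fit without the covariate, 0 of the 20 cardiomyocyte markers passed the adjusted threshold, 2 were lower at an unadjusted p under 0.05, beside 3.83% of all genes tested, and all 20 had a log2 fold change below 0, with a median of -0.26. Among them Myh6, the main myosin heavy chain of the adult mouse ventricle, was at -0.42 ± 0.17 (adjusted p = 0.29, edgeR). The part of these cell markers in the troponin values was not tested.

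**Figure D2:**
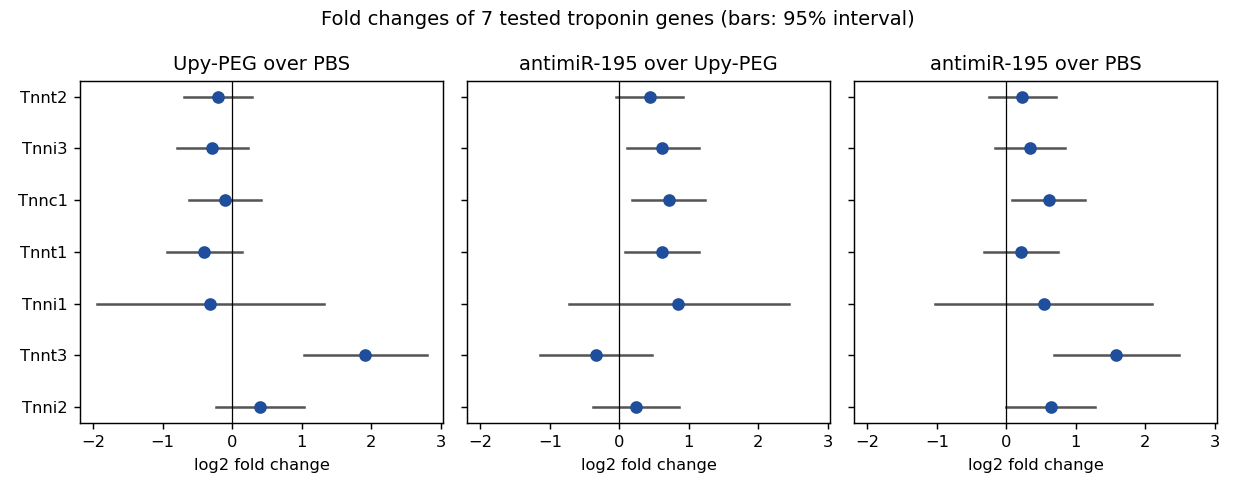
Log2 fold changes of the 7 troponin genes tested, with 95% intervals, for Upy-PEG over PBS, antimiR-195 over Upy-PEG and antimiR-195 over PBS. Tnnt3 lies at 1.91 and 1.58 against PBS with intervals above 0. The cardiac genes lie below 0 in the left panel and above 0 in the middle panel, where the intervals of Tnni3 (0.11 to 1.14) and Tnnc1 (0.18 to 1.23) leave 0 out.

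Hearts given Upy-PEG with antimiR-195 were compared with those given Upy-PEG alone to ask what the drug adds to the gel. The cardiac genes and Tnnt1 averaged higher with antimiR-195, but replicates 2 and 3 held the difference. Tnnt2 had 8670, 13400, 12300 and 7340 CPM in antimiR-195 hearts, against 5550, 7840, 8240 and 9190 CPM in Upy-PEG hearts. Tnni3 had 4990, 8100, 6820 and 4200 CPM in antimiR-195 hearts, against 2670, 3760, 4680 and 4530 CPM in Upy-PEG hearts. Tnnc1 had 2860, 5790, 4150 and 2590 CPM in antimiR-195 hearts, against 1790, 2230, 2770 and 2640 CPM in Upy-PEG hearts. In each of the 3 genes antimiR-195 replicates 2 and 3 were the highest libraries and replicate 4 lay within the Upy-PEG range. Tnnt1 followed, with 11, 19.3, 23.1 and 13.3 CPM in antimiR-195 hearts, against 8.63, 10.1, 12.4 and 12.4 CPM in Upy-PEG hearts.

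The log2 fold changes were 0.44 ± 0.214 for Tnnt2, 0.62 ± 0.227 for Tnni3, 0.71 ± 0.233 for Tnnc1 and 0.62 ± 0.238 for Tnnt1. None passed the adjusted threshold (adjusted p = 0.386 for Tnnt2 and 0.364 for the other 3, edgeR), and neither did any other of the 14770 genes (0%). At an unadjusted p under 0.05, 3 of the 7 troponin genes were higher (Tnni3, Tnnc1 and Tnnt1), beside 6.67% of all genes tested, and 0 were lower, beside 6.4%. DESeq2, which called 0.0881% of all genes at an adjusted p under 0.05, and limma voom, which called 0%, each called 0 of the 7. The median log2 fold change of the 7 genes was 0.62, beside -0.005 for all genes tested. The groups overlapped for every troponin gene, whereas 1.94% of all genes tested were higher and 2.47% lower without overlap. Without antimiR-195 replicates 2 and 3, the log2 fold changes were 0.06 ± 0.213 for Tnnt2, 0.23 ± 0.225 for Tnni3, 0.21 ± 0.186 for Tnnc1 and 0.17 ± 0.229 for Tnnt1, and 0 of the 7 genes had an unadjusted p under 0.05. With the length slope as a covariate they were 0.09 ± 0.104, 0.26 ± 0.106, 0.29 ± 0.0977 and 0.27 ± 0.163 in the same order, and 2 of the 7 genes, Tnni3 and Tnnc1, had an unadjusted p under 0.05, beside 8.79% of all genes tested (adjusted p = 0.566 each).

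**Figure D3:**
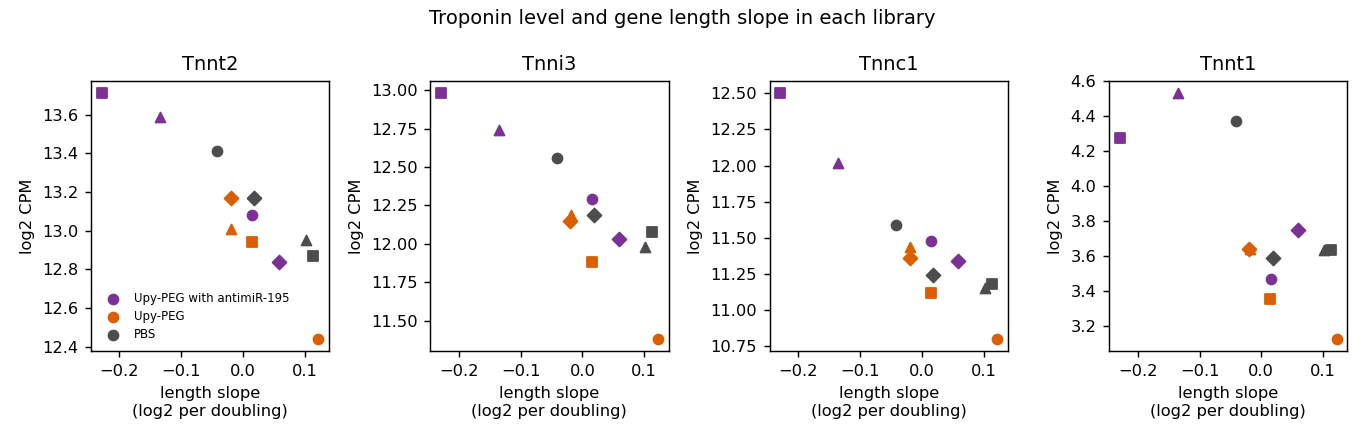
Level of Tnnt2, Tnni3, Tnnc1 and Tnnt1 (log2 CPM) against the gene length slope of the same library (log2 per doubling of length), with 1 point per library, coloured by group and shaped by replicate number (circle 1, square 2, triangle 3, diamond 4). AntimiR-195 replicates 2 and 3, at slopes of -0.229 and -0.135, hold the highest levels of Tnnt2, Tnni3 and Tnnc1, and Upy-PEG replicate 1, at 0.122, the lowest level of all 4 genes.

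Markers of heart muscle and of macrophages were read in the same fit. Of the 20 cardiomyocyte markers, 0 passed the adjusted threshold and 7 were higher at an unadjusted p under 0.05, beside 6.67% of all genes tested, with Myl2 (0.63 ± 0.195), Myoz2 (0.43 ± 0.139) and Mb (0.60 ± 0.211) at the lowest p (adjusted p = 0.364 each, edgeR). Of the 15 macrophage markers, 0 passed and 7 were lower at an unadjusted p under 0.05, beside 6.4% of all genes tested, with a median log2 fold change of -0.32. Once antimiR-195 replicates 2 and 3 were left out, 0 of the 20 cardiomyocyte markers were higher or lower at that level. Their median log2 fold change was 0.24 both with and without those libraries, and the smaller fit has less power. In it, all 15 macrophage markers were lower at that level, with a median of -0.78, beside 6.61% of all genes tested. The part of these markers in the troponin values was not tested.

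The plot of troponin level against length slope shows that the 4 genes lay higher in libraries whose levels fell with gene length. Within the PBS group too, replicate 1 had the lowest slope, -0.0415, and the highest level of each gene. This is a description of these 12 libraries, with no test.

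Tnnt3 did not share this pattern, whereas Tnni2 and Tnni1 also had their highest 2 values in antimiR-195 replicates 2 and 3. Tnnt3 had 20, 47, 34 and 63 reads in antimiR-195 libraries, or 0.928, 2.02, 1.66 and 2.44 CPM, against 3.97, 1.98, 1.74 and 1.18 CPM in Upy-PEG hearts. The 2 groups overlapped, with a log2 fold change of -0.33 ± 0.357 (95% interval -1.14 to 0.47, adjusted p = 0.653, edgeR). Without Upy-PEG replicate 1 it was 0.11, and without antimiR-195 replicates 2 and 3 it was -0.39 ± 0.463. Tnni2 had 2.46, 5.03, 3.86 and 1.70 CPM in antimiR-195 hearts, against 2.79, 2.81, 2.58 and 2.84 CPM in Upy-PEG hearts. Its antimiR-195 libraries lay on both sides of the narrow Upy-PEG range, and its log2 fold change was 0.24 ± 0.276 (adjusted p = 0.678, edgeR), and -0.41 ± 0.231 without antimiR-195 replicates 2 and 3. Tnni1 had 1, 22, 13 and 9 reads in antimiR-195 libraries and a log2 fold change of 0.85 ± 0.701 (adjusted p = 0.559, edgeR), and -0.38 without those libraries. Tnnc2 had 4, 16, 7 and 3 reads in antimiR-195 libraries, which was not distinguishable from Upy-PEG (exact permutation p = 0.314).

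Against PBS, the antimiR-195 hearts were the higher for Tnnt3, as the Upy-PEG hearts were. All 4 antimiR-195 libraries, at 0.928, 2.02, 1.66 and 2.44 CPM, lay above all 4 PBS libraries, at 0.586, 0.466, 0.749 and 0.557 CPM. The log2 fold change was 1.58 ± 0.399 (95% interval 0.68 to 2.48), a 2.99-fold higher level, with an adjusted p of 0.253 (edgeR). The exact permutation test gave p = 0.0286, again the value that any 4 against 4 libraries without overlap give. The PBS libraries are the same as in the comparison with Upy-PEG, so the 2 differences are not independent. Without antimiR-195 replicates 2 and 3 the log2 fold change of Tnnt3 was 1.53 ± 0.495.

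In this comparison 0 of the 7 genes tested passed the adjusted threshold (0% of all genes tested; lowest adjusted p 0.235), and 0 of them were called by DESeq2, which called 0.818% of all genes, or by limma voom, which called 0.00677%. At an unadjusted p under 0.05, 3 were higher (Tnnt3, Tnnc1 and Tnni2), beside 8.65% of all genes tested, and 0 were lower, beside 7.89%. Only Tnnt3 of the 7 was higher without overlap, beside 2.74% of all genes tested, and 0 were lower without overlap, beside 3.32%. Tnnc1 was at 0.61 ± 0.233 (adjusted p = 0.268) and Tnni2 at 0.64 ± 0.281 (adjusted p = 0.285, edgeR). Without antimiR-195 replicates 2 and 3, Tnnc1 was at 0.12 ± 0.186 and Tnni2 at -0.01 ± 0.232. Tnnt2, at 0.23, Tnni3, at 0.34, and Tnnt1, at 0.21, had adjusted p-values of 0.549, 0.42 and 0.622, and without those libraries they were at -0.14, -0.05 and -0.23. Tnni1 was at 0.54 ± 0.691 (adjusted p = 0.676, edgeR), and at -0.69 without them.

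Tnnt3 was then set beside its surroundings. Lsp1, which encodes a leukocyte actin-binding protein, ends 3968 bases before Tnnt3 begins, on the same strand, and has many more reads. Lsp1 had 51.2, 89.3, 77.3 and 63.7 CPM in antimiR-195 hearts, 90.0, 81.9, 58.7 and 66.7 CPM in Upy-PEG hearts and 51.2, 41.1, 51.7 and 57.8 CPM in PBS hearts. All Upy-PEG libraries lay above all PBS libraries for Lsp1, with a log2 fold change of 0.56 ± 0.177 (adjusted p = 0.171, edgeR), while antimiR-195 overlapped PBS (0.48 ± 0.177, adjusted p = 0.26). Leaving out antimiR-195 replicates 2 and 3 gave 0.19 ± 0.175 for Lsp1 in antimiR-195 over PBS. Tnnt3 had 2.51 ± 0.899 reads per 100 Lsp1 reads in antimiR-195 hearts, 2.9 ± 1.13 in Upy-PEG hearts and 1.17 ± 0.203 in PBS hearts. The log2 ratio of Tnnt3 to Lsp1 was 1.20 higher in Upy-PEG and 1.03 higher in antimiR-195 than in PBS, without overlap in either case (exact 2-sided permutation p = 0.0286 each, the smallest possible). Mrpl23, the next protein-coding gene on the other side, was at -0.26 ± 0.243 in Upy-PEG over PBS (adjusted p = 0.731, edgeR).

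**Figure D4:**
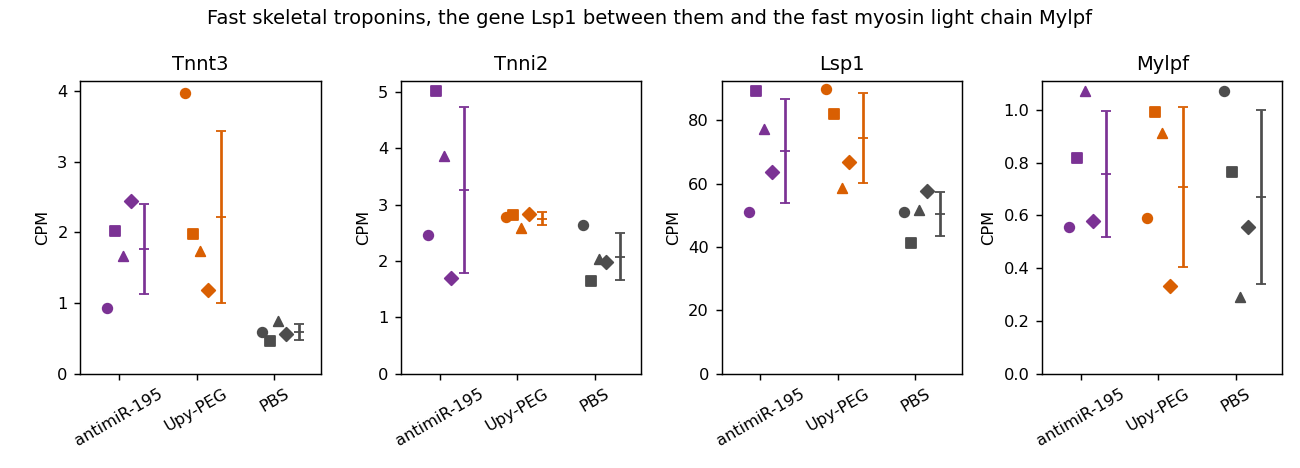
CPM of Tnnt3, Tnni2, Lsp1 and the fast myosin light chain Mylpf in each library, coloured by group and shaped by replicate number (circle 1, square 2, triangle 3, diamond 4), with the mean and SD of each group of 4 beside the points. Tnnt3 is at 0.928 to 3.97 CPM in hydrogel hearts and at 0.466 to 0.749 CPM in PBS hearts, whereas the groups overlap for Mylpf.

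Most, but not all, markers of skeletal muscle were hardly seen. Of 19 skeletal muscle markers, 13 stayed below 1 RPKM in every library. The others were Mylpf, Myl1, Casq1, Cacna1s, Mybpc2 and Jsrp1. Mybpc2 had 435 to 1197 reads per library, Myl1 407 to 1005, Casq1 120 to 535 and Cacna1s 142 to 348. The fast myosin heavy chains Myh1 and Myh4 had 0 to 3 and 3 to 12 reads per library, and Actn3, the fast fibre actinin, 1 to 8. Mylpf, the fast regulatory light chain, had 12, 19, 22 and 15 reads in antimiR-195 libraries, 19, 30, 23 and 9 in Upy-PEG libraries and 33, 18, 7 and 14 in PBS libraries, so its groups overlapped. The skeletal muscle transcription factor genes Myog, Myf5 and Myf6, and the satellite cell gene Pax7, were at 0 reads in 11 of 12 libraries each. Myod1, another such factor gene, had 0 to 3 reads and was at 0 in 4 libraries. Summed over the 19 markers, the level was 66.1 to 119 CPM in antimiR-195 hearts, 83.2 to 95.7 in Upy-PEG hearts and 66.7 to 75.2 in PBS hearts.

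Of the 9 skeletal markers tested, 0 passed the adjusted threshold in any comparison. In Upy-PEG over PBS, 2 were higher at an unadjusted p under 0.05, beside 9.33% of all genes tested, and 0 were lower, beside 3.83%. The 2 were Myl1 (0.53 ± 0.124, adjusted p = 0.0985) and Mybpc2 (0.43 ± 0.182, adjusted p = 0.321). Cacna1s, the third by p, was at -0.38 ± 0.22 (adjusted p = 0.514, edgeR). Myl1, a fast essential light chain, had 34.4, 33.6, 27.3 and 38.9 CPM in antimiR-195 hearts, 30.6, 30.1, 31.1 and 29.6 CPM in Upy-PEG hearts and 19.9, 17.3, 23.5 and 23.7 CPM in PBS hearts. Both hydrogel groups lay above PBS for Myl1 in every library, as for Tnnt3, and Upy-PEG lay above PBS without overlap for Mybpc2 too. Of all genes tested, 5.9% were higher without overlap in Upy-PEG over PBS and 2.74% in antimiR-195 over PBS. Myl1, Mybpc2 and Jsrp1 were higher at an unadjusted p under 0.05 in antimiR-195 over PBS, beside 8.65% of all genes tested. When antimiR-195 replicates 2 and 3 were left out the count was again 3, of 11 markers then tested, beside 2.2%, and Myl1 was at 0.80 ± 0.125 (adjusted p = 0.242, edgeR).

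Markers of other cells were read beside Tnnt3. All 15 macrophage markers had a log2 fold change above 0 in Upy-PEG over PBS, with a median of 1.03, and 14 had an unadjusted p under 0.05, beside 9.33% of all genes tested that were higher at that level. Their summed level was 901 to 1880 CPM in antimiR-195 hearts, 1320 to 2070 in Upy-PEG hearts and 635 to 1020 in PBS hearts. The 7 atrial markers, of which Bmp10 was at 0 in all 12 libraries, summed to 603 to 1380 CPM in antimiR-195 hearts, 783 to 1430 in Upy-PEG hearts and 242 to 391 in PBS hearts, most of it Nppa, the gene of atrial natriuretic peptide, which stressed ventricles also use. Nppa was at 1.60 ± 0.274 in Upy-PEG over PBS (adjusted p = 0.0914, edgeR), but 4 of the 6 atrial markers tested (Myl4, Myl7, Sln and Mybphl) were below 0, and the median of the 6 was -0.23. Fibroblast and myofibroblast markers summed to 2310 to 3820 CPM in antimiR-195 hearts, 3320 to 6720 in Upy-PEG hearts and 2410 to 3950 in PBS hearts. Smooth muscle markers overlapped, at 380 to 541 CPM in antimiR-195 hearts, 391 to 676 in Upy-PEG hearts and 399 to 544 in PBS hearts, as did endothelial markers, at 705 to 954 CPM in antimiR-195 hearts, 791 to 954 in Upy-PEG hearts and 853 to 1040 in PBS hearts. Of the macrophage markers, Cd68 (1.22 ± 0.193, adjusted p = 0.0809), Mmp12 (1.79 ± 0.339, adjusted p = 0.0971) and Adgre1 (0.91 ± 0.188, adjusted p = 0.0971, edgeR) had the lowest p in Upy-PEG over PBS. The part of these cells in the Tnnt3 difference was not tested.

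The genes whose levels ran most like each troponin over the 12 libraries were found among 12957 genes with a mean of at least 1 CPM. They were picked for their high Pearson r of log2 CPM, so no test is given, and the libraries share their length slopes and groups. For Tnnt3 they were Mum1l1 (r = 0.948), Wsb1 (0.929), Cenpl (0.927), Nppa (0.926) and the monocyte chemokine gene Ccl7 (0.916). For Tnni3 they were 4 genes of mitochondrial proteins, Ndufb9 (0.996), Atp5o (0.994), Ndufs6 (0.993) and Ndufs3 (0.992), and Mrpl51 (0.995) of the mitochondrial ribosome. For Tnnt2 the first was Mtch2 (0.989), for Tnnc1 Cdc34 (0.99), for Tnnt1 Ddx47 (0.967), for Tnni2 Grrp1 (0.972) and for Tnni1 Prcd (0.928). Among the troponins, the cardiac genes ran together (r = 0.97 for Tnnt2 with Tnni3, 0.91 for Tnnt2 with Tnnc1 and 0.95 for Tnni3 with Tnnc1), whereas Tnnt3 was at -0.24 with Tnnt2, -0.25 with Tnni3 and 0.04 with Tnnc1.

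The cardiac subunits were also set against each other. Tnnt2 had 2.36 ± 0.273 times the RPKM of Tnnc1 in antimiR-195 hearts, 2.77 ± 0.233 times in Upy-PEG hearts and 2.98 ± 0.205 times in PBS hearts. The size of this ratio rests on the deposited Tnnt2 length of 1227 bases. At the 7752 bases of release 21 the median of Tnnt2 is 1080 RPKM, under the 2540 of Tnnc1. Tnni3 had 0.865 ± 0.0787 times the RPKM of Tnnc1 in antimiR-195 hearts, 0.889 ± 0.0549 times in Upy-PEG hearts and 1.02 ± 0.0439 times in PBS hearts. The hydrogel libraries, the highest of which was at 0.943, all lay below the PBS libraries, at 0.959 to 1.06. This was noticed among several ratios and was not tested.

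The other proteins of the thin filament were followed as a list of 20 genes, all tested. In Upy-PEG over PBS, 0 passed the adjusted threshold, and at an unadjusted p under 0.05, 3 of 20 were higher, beside 9.33% of all genes tested, and 1 lower, beside 3.83%, with a median log2 fold change of -0.10. The higher ones were tropomyosin genes: Tpm3 (0.44 ± 0.123, adjusted p = 0.123), Tpm4 (0.49 ± 0.155, adjusted p = 0.174) and Tpm2 (0.57 ± 0.259, adjusted p = 0.366). Lmod3, whose protein nucleates actin filaments, was the lower one (-0.35 ± 0.138, adjusted p = 0.278). Tpm1, the tropomyosin of heart muscle, had 7980, 8870, 9650 and 9840 CPM in Upy-PEG hearts, against 12800, 9240, 9280 and 10400 CPM in PBS hearts and was at -0.20 ± 0.158 (adjusted p = 0.674, edgeR), beside -0.20 ± 0.214 for Tnnt2. Tpm2 to Tpm4 thus lay on the other side of 0 from Tpm1.

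In antimiR-195 over Upy-PEG, 0 thin filament genes passed the adjusted threshold, and 4 of 20 were higher, beside 6.67% of all genes tested, and 0 lower, beside 6.4%, at an unadjusted p under 0.05. The 4 were Tmod4 (0.44 ± 0.15), Tpm1 (0.41 ± 0.158), Lmod3 (0.33 ± 0.138) and the cardiac actin gene Actc1 (0.28 ± 0.129), with adjusted p-values of 0.364 to 0.38. With antimiR-195 replicates 2 and 3 left out, 2 of the 20 were higher and 2 lower at that level, beside 2.45% and 6.61% of all genes. In antimiR-195 over PBS, 0 passed, and 3 were higher, beside 8.65%, and 1 lower, beside 7.89%, at an unadjusted p under 0.05. With the same libraries left out, 1 was higher and 0 lower, beside 2.2% and 2.28%. Acta1, the skeletal actin that the fetal heart also uses, was at 0.69 ± 0.207 (adjusted p = 0.253), the cofilin gene Cfl2 at 0.23 ± 0.0935 (adjusted p = 0.276) and the formin gene Fhod3 at -0.44 ± 0.16 (adjusted p = 0.254, edgeR).

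**Figure D5:**
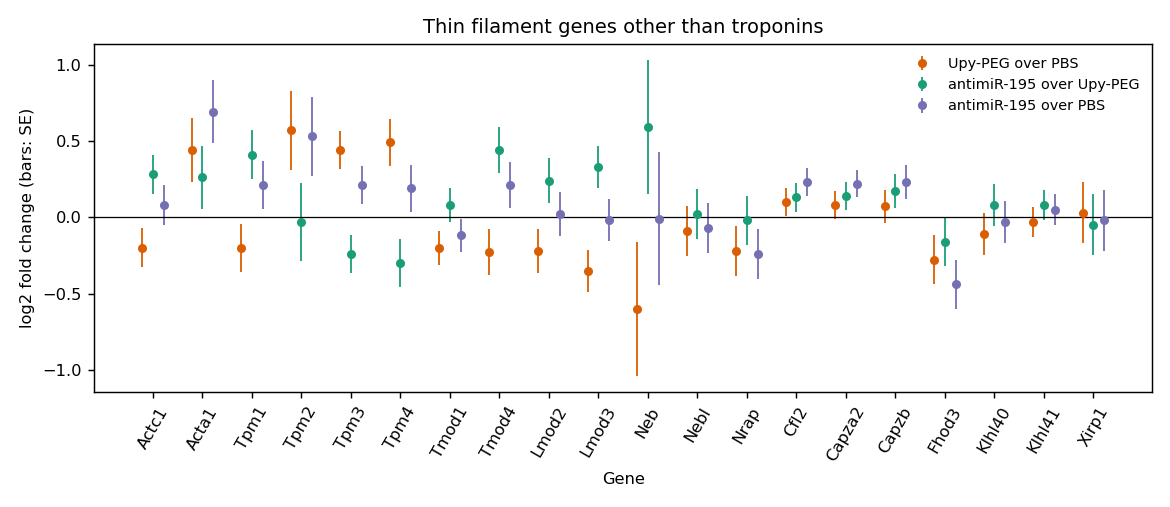
Log2 fold changes of 20 thin filament genes other than troponins, with SE bars, for Upy-PEG over PBS (orange), antimiR-195 over Upy-PEG (green) and antimiR-195 over PBS (purple). Tpm2, Tpm3 and Tpm4 lie at 0.57, 0.44 and 0.49 in Upy-PEG over PBS, and Actc1 and Tpm1 at -0.20.

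Of 13 genes of enzymes that act on troponin, 0 passed the adjusted threshold in any comparison. In Upy-PEG over PBS, 2 were higher at an unadjusted p under 0.05, beside 9.33% of all genes tested, and 2 lower, beside 3.83%. The higher ones were Pak1 (0.84 ± 0.214, adjusted p = 0.113) and Prkcd (0.63 ± 0.18, adjusted p = 0.131), both kinases that immune cells also use. The lower ones were Prkce (-0.40 ± 0.0939, adjusted p = 0.0985) and Trim63, a ubiquitin ligase for troponin I (-0.26 ± 0.101, adjusted p = 0.275). In antimiR-195 over Upy-PEG, Trim63 was at 0.28 ± 0.101, Prkce at 0.22 ± 0.094 and Pak1 at -0.48 ± 0.212, with adjusted p-values of 0.364 to 0.373. These 2 higher and 1 lower at an unadjusted p under 0.05 stood beside 6.67% and 6.4% of all genes tested. In antimiR-195 over PBS none of the 13 had an unadjusted p under 0.05. The counts with antimiR-195 replicates 2 and 3 left out were 2 higher and 3 lower in antimiR-195 over Upy-PEG, beside 2.45% and 6.61% of all genes tested, and 0 in antimiR-195 over PBS. Of 9 factors that splice troponin T transcripts, 0 passed in any comparison. In Upy-PEG over PBS none had an unadjusted p under 0.05. Rbm20, a cardiac splicing factor, was at -0.33 ± 0.155 (adjusted p = 0.384), Rbfox1 at -0.27 ± 0.132 and Ptbp1 at 0.32 ± 0.167. In antimiR-195 over Upy-PEG, Ptbp1 was at -0.43 ± 0.168 (adjusted p = 0.364) and was the 1 factor with an unadjusted p under 0.05, beside 6.4% of all genes tested that were lower. In antimiR-195 over PBS, Mbnl1 (0.26 ± 0.0924) and Celf2 (0.20 ± 0.0883) were higher and Rbm20 (-0.47 ± 0.155) lower at that level, with adjusted p-values of 0.253 to 0.285 (edgeR). Of all genes tested, 8.65% were higher and 7.89% lower at that level. Of the 9, 0 had an unadjusted p under 0.05 in either comparison once antimiR-195 replicates 2 and 3 were left out. The gene counts do not separate the spliced forms of Tnnt2 or Tnnt3.

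Of 11 cardiac transcription factor genes, 0 passed in any comparison, and 10 had a log2 fold change below 0 in Upy-PEG over PBS, with a median of -0.16. In that comparison Mef2d was at -0.32 ± 0.178 (adjusted p = 0.483), Tbx5 at -0.26 ± 0.155 and Mef2c at -0.16 ± 0.112, and none had an unadjusted p under 0.05. In antimiR-195 over PBS, Mef2d, at -0.48 ± 0.179 (adjusted p = 0.26), and Tbx5, at -0.37 ± 0.156 (adjusted p = 0.283, edgeR), were lower at an unadjusted p under 0.05, beside 7.89% of all genes tested. In antimiR-195 over Upy-PEG none was, and the median was -0.08. Of the 11, 0 were past that level in either comparison once antimiR-195 replicates 2 and 3 were left out. Tead1, whose protein binds M-CAT elements, was at -0.36 ± 0.52 in Upy-PEG over PBS (adjusted p = 0.832, edgeR).

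The annotation limits 2 of the genes. Tnnc2 shares 592 of its 800 exonic bases with Ube2c, a cell cycle gene on the opposite strand. Ube2c had 4.22, 12.6, 6.69 and 5.88 CPM in antimiR-195 hearts, 12.9, 9.58, 7.50 and 8.38 CPM in Upy-PEG hearts and 3.55, 3.05, 4.58 and 5.85 CPM in PBS hearts. The library kit keeps the strand, but the strand setting of the counting is not given in the sources used here. The 1 to 16 reads of Tnnc2 may therefore belong to either gene. Tnni3 shares 86 exonic bases with Dnaaf3 on the same strand, which has 209 to 421 reads per library against at least 86086 for Tnni3.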

How the data were processed

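Left ventricular RNA was sequenced in 12 poly(A) RNA libraries made with a stranded kit, 4 in each of 3 groups taken from the vehicle and drug labels, with replicate numbers given in accession order. Per the submitters' processing notes, STAR, HTSeq and DESeq were used on GRCm38. Their versions and the strand setting are not given in the sources used here. The authors deposited raw counts per gene and RPKM. Per library, 6.25% to 8.77% of counted reads fell on no feature and 0.66% to 0.9% were ambiguous; neither entered library sizes or tests. Of the 38293 genes, 36345 had a symbol.

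From the counts, edgeR 4.0.16 in R 4.3.3 was run on all 12 libraries: genes were filtered by filterByExpr (minimum count 10), scaled by TMM and tested by the quasi-likelihood test in a group-means model with 9 residual degrees of freedom, with Benjamini-Hochberg adjustment over 14770 genes and a threshold of 0.05. DESeq2 1.42.0 and limma 3.58.1 (voom with sample weights, and limma-trend on log2 of RPKM plus 0.1 or 1) were alternatives, as were other scalings and filters, leaving out libraries, and a gene length slope covariate. Refitting the gene lists without antimiR-195 replicates 2 and 3 was chosen after seeing the data. CPM is after TMM, and log2 CPM uses a prior count of 2. Exact 2-sided permutation tests compared 4 with 4 libraries. Scripts were tested on simulated data. The troponin genes and all gene lists were chosen with earlier results of these data known. All 8 troponins are named; of each gene list outside the marker lists, members past the adjusted threshold or otherwise the 3 with the lowest p; for each tested troponin the genes most alike by r and the nearest coding neighbours, of which the text gives a part. Other genes named were picked after their values were seen.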

Additional observations from a re-analysis of the deposited data

Results flagged for a closer look

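Of 24 sets of 4 values (8 troponin genes in 3 groups) checked for a single library far from the others, 1 stood out. Tnnt1, the slow skeletal troponin T gene, was at 20.6 CPM in PBS replicate 1, against 11.9 to 12.4 CPM in the other PBS libraries, a gap of 0.943 of the whole range where 0.829 is the limit for 4 values. Without that library the log2 fold change of Tnnt1 in Upy-PEG over PBS was -0.17, against -0.40 with it. Chance gives such a value in about 1 of 20 groups.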

How the results depend on the processing

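Of 507 alternative values for the 7 troponin genes tested, 474 kept their direction and their side of the adjusted threshold, 7 passed it where the reported value did not (each of them Tnnt3 in Upy-PEG over PBS), 26 changed direction and 0 lost a call. In Upy-PEG over PBS, where no gene passed, 69 genes passed without a filter, 505 with DESeq2, 918 with limma voom, 1 with limma-trend on log2(RPKM + 0.1) without a filter, 172 with only the 8 libraries compared, 349 without antimiR-195 replicates 2 and 3, and 332 with the gene length slope as a covariate. Except in the limma-trend fit, 1 troponin gene, Tnnt3, was among them each time. At an unadjusted p under 0.05, 2 troponins (Tnnt3 and Tnni2) were counted with voom, with the 8 libraries and without the 2 libraries, beside 24.5%, 16.6% and 17.9% of all genes, and 5 with the covariate, beside 23.4%. Leaving out 1 library at a time gave 0 to 150 genes, the highest without antimiR-195 replicate 2 and 46 without Upy-PEG replicate 3, and 0 to 1 troponin. The adjusted p of Tnnt3 ran from 0.00145 to 0.321 and its log2 fold change from 0.87, at a pseudocount of 1 RPKM, to 2.12.

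In antimiR-195 over Upy-PEG, DESeq2 called 13 genes and limma-trend without a filter 2. At an unadjusted p under 0.05, 0 troponins were left in all 3 limma-trend fits and without antimiR-195 replicates 2 and 3, and 1 to 4 when 1 library was left out, with 1 (Tnnc1) without antimiR-195 replicate 2. In antimiR-195 over PBS, 1 gene was called without a filter, 95 with DESeq2, 1 with voom and 2 with limma-trend without a filter. Here 1 troponin, Tnnt3, had an unadjusted p under 0.05 in the 3 limma-trend fits, without antimiR-195 replicates 2 and 3 and with the covariate, and 1 to 3 did when 1 library was left out, with 1 without PBS replicate 3 or antimiR-195 replicate 2.

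Direction changed as follows, and the cause was not tested. With both hydrogel groups against PBS, log2 fold changes were 0.01 for Tnnt2, 0.02 for Tnni3, 0.25 for Tnnc1 and 0.11 for Tnni1. In Upy-PEG over PBS, leaving out 1 library gave -0.18 to 0.02 for Tnnc1 (0.01 without PBS replicate 1, 0.02 without Upy-PEG replicate 1) and -0.89 to 0.04 for Tnni1. In antimiR-195 over Upy-PEG, Tnni1 was at -0.51 with voom and -0.38 without antimiR-195 replicates 2 and 3, and Tnni2 at -0.10 with voom, -0.02 with limma-trend on log2(RPKM + 0.1) with or without a filter, -0.41 without those libraries and -0.24 with the covariate. Leaving out 1 library there gave -0.06 to 0.46 for Tnni2 and -0.54 to 0.11 for Tnnt3. In antimiR-195 over PBS, Tnni1 was at -0.55 with voom. Without antimiR-195 replicates 2 and 3, Tnnt2 was at -0.14, Tnni3 at -0.05, Tnnt1 at -0.23, Tnni1 at -0.69 and Tnni2 at -0.01, and with the covariate Tnnt2 was at -0.19, Tnni3 at -0.12, Tnnt1 at -0.20 and Tnni1 at -0.48. Scaling by library size alone moved the median of all genes to 0.073 in Upy-PEG over PBS, -0.156 in antimiR-195 over Upy-PEG and -0.043 in antimiR-195 over PBS, and the share of unadjusted calls that were higher to 91.7%, 5.37% and 33.9%, against 70.9%, 51% and 52.3% with TMM, in the same order.

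No paired analysis was possible because the replicate numbers follow accession order and pair no libraries. At 1 to 22 reads per library, Tnni1 and Tnnc2 allow no statement on direction, and the 11 to 128 reads of Tnnt3 leave its fold wide. The cardiac genes, with at least 54603 reads per library, are limited by the spread between libraries.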
